A study of Mus musculus with 3 samples.

Results

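The 10 genes of bone formation followed here, Runx2, Sp7, Mef2c, Alpl, Phex, Ibsp, Spp1, Dmp1, Bglap and Ifitm5, were read cell by cell in single-cell RNA sequencing of the developing mouse palate. They were taken by name, as 10 of the 32285 genes in the deposited count matrices, and described by the order in which they appeared, by their detection together in one cell and by their levels outside the bone lineage. The embryos were wild-type mice of the C57BL/6J strain, and their palatal shelves were dissected on 3 embryonic days, E13.5 and the next, E14.5, and then E15.5. Tissue of 3 embryos was pooled for each stage, dissociated with TrypLE, fixed in methanol and run as 1 library on the 10x Genomics droplet platform. With 1 library per stage and no label that separates the embryos of a pool, stage, library and animals cannot be told apart and no difference between stages could be tested. Intervals below are 95% intervals for counting error only.

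The bones of the hard palate form within membrane, directly from mesenchyme and without a cartilage template. Runx2 is the transcription factor that commits mesenchymal cells to the osteoblast lineage, Sp7 (osterix) acts downstream of it, and Mef2c is a transcription factor with parts in bone and cartilage as well as in muscle, vessels, neurons and immune cells. Committed cells make alkaline phosphatase, lay down collagen and acidic matrix proteins such as bone sialoprotein and osteopontin, and later make osteocalcin and the osteocyte proteins.

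The 10 genes were found at very unequal frequencies. At E13.5 the mesenchymal cells already held Runx2 RNA in 21.1% and Mef2c RNA in 19.0% of cells at equal depth, whereas Ibsp was at 0 UMIs. Mef2c was found in a larger share of myeloid-like and endothelial-like cells, so its share has no background to be read against. For Runx2 the background cells of that stage were few. By E14.5 Runx2, Mef2c, Alpl, Sp7 and Ibsp had all risen, and the summed Ibsp level was lower again at E15.5. Almost all Ibsp and Spp1 molecules lay in a small number of cells, while Runx2, Mef2c and Alpl were spread over many more. Outside the bone lineage Mef2c was about as high in endothelial-like cells as in osteogenic-like ones and somewhat lower in myeloid-like cells. Runx2 was present in chondrogenic-like and, at a like level, in muscle-like cells, and the matrix genes were at or near 0 in most classes.

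Ibsp, Spp1 and Dmp1 are neighbours on chromosome 5, on the plus strand, and lie with Mepe within 238 kb (chr5:104202613-104441050, build GRCm38). Bglap lies on chromosome 3 (chr3:88383501-88384464, minus strand), beside its near-identical copies Bglap2 and Bglap3. Runx2 is at chr17:44495987-44814797 (minus strand), Sp7 at chr15:102356606-102367182 (minus strand), Alpl at chr4:137741733-137796384 (minus strand) and Mef2c at chr13:83504034-83667080 (plus strand). Phex is at chrX:157162075-157415312 (minus strand) and Ifitm5 at chr7:140948958-140950291 (minus strand). All 10 are annotated as protein coding, and every position refers to the whole gene.

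The stretches before the start sites of the 4 matrix genes are shown because these genes, whose molecules lay in few cells, are described most closely below, and they were read for the letters bound by the protein family of Runx2. The letters searched were TGTGGT, the core bound by RUNX factors, and its reverse complement ACCACA, within the 250 bases before each RefSeq start site (build GRCm38.p6). Of the 10 genes, 9 had an entry, with 14 start sites in all. The letters occurred before 4 of these sites, at Runx2, Spp1, Bglap and Dmp1, beside 14.0% of all 32851 promoters in the table. The match began 80 bases before the Runx2 start site, 128 before that of Spp1, 132 before that of Bglap and 164 before the second start site of Dmp1. Capitals mark the match, each stretch reads along the gene's own strand, and bases inside the GENCODE gene are left out. Such a match describes the letters only. The first stretch is chr5:104434861-104435110 (plus strand), the second chr3:88384467-88384716 (minus strand), the third chr5:104202367-104202612 (plus strand) and the fourth, which holds no match, chr5:104299037-104299170 (plus strand).
Spp1: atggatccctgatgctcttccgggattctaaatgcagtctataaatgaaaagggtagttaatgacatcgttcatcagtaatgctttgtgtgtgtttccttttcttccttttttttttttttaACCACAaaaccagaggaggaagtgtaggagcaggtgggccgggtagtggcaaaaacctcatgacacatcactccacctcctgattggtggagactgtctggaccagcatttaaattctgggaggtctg
Bglap: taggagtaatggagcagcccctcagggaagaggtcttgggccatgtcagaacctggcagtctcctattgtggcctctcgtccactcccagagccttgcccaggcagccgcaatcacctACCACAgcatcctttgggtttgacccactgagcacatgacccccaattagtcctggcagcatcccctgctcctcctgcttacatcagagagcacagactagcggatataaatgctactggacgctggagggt
Dmp1: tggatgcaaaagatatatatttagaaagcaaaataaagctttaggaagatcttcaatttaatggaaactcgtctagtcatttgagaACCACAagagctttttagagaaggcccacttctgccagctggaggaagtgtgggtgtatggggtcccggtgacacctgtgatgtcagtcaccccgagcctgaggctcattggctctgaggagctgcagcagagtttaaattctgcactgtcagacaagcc
Ibsp: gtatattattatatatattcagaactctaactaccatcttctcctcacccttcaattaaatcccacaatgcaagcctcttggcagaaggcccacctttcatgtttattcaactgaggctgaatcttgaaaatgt

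The libraries held 4236, 2079 and 3113 barcodes with 11472663, 5293977 and 8313677 unique molecular identifiers (UMIs, each one captured RNA molecule), and 7888 cells were kept. The median UMI total per barcode was 1735, 1614 and 1699 from the earliest stage to the latest. Of the kept cells 651, 1175 and 1742 fell in the mesenchymal lineage, meaning the mesenchymal-like, osteogenic-like and chondrogenic-like clusters, and 17, 295 and 332 of them in the osteogenic-like class. That class was 1 cluster, found with the 10 genes and the Bglap copies held out of the clustering. It was named from Pth1r, Smpd3, Tnn, Fkbp11 and Omd, 5 of the 9 osteogenic markers. The others, Dlx3, Mmp13, Cgref1 and Col22a1, did not pass the naming rule in it. Classes carry "-like" because no annotation of cells was used. Neuronal-like cells made 50.7% and neural progenitor-like cells 15.7% of the kept cells at E13.5, so stages were compared within the lineage. The clusters inside the lineage differed between stages as well. One mesenchymal-like cluster had 329 cells at E13.5 and then 90 and 111, and the chondrogenic-like cluster had 120, 69 and 30. In 3 other mesenchymal-like clusters there were 6, 11 and 16 cells at E13.5, 193, 107 and 179 a day later and 243, 252 and 403 at E15.5. A change of level in the lineage and a change in its makeup therefore cannot be told apart. Globin RNA, which belongs to red cells, stood at 8218 counts per 1000000 UMIs (CPM) in the osteogenic-like class, with 2449, 6439 and 9987 CPM at successive stages, and its part in the comparisons was not tested. In all, 5 barcode sequences occurred in more than 1 library, none with equal totals.

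Levels are given as CPM, the UMIs of the gene per 1000000 UMIs of all genes in the summed cells. In such sums fewer cells of a type and less RNA per cell cannot be told apart. In the lineage Runx2 stood at 329 CPM (301 to 359) on E13.5, 966 (931 to 1003) on the next day and 1018 (990 to 1047) at E15.5, from 505, 2729 and 4832 UMIs. The first step was 2.94-fold (2.67 to 3.24) and the second 1.05-fold (1.00 to 1.10). The share of lineage cells in the osteogenic-like class differed between stages as well (the 17, 295 and 332 cells above), and inside that class Runx2 stood at 1.23 of its E13.5 level at E14.5 (0.988 to 1.55), from 85 UMIs at E13.5. Of these, 24 were in 1 cell, and the 17 cells of E13.5 largely lacked the markers of the class (below), so this first step does not compare like cells. Its second step there was 1.16-fold (1.09 to 1.24).

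Sp7, which encodes the zinc finger factor osterix, had 2, 59 and 80 UMIs over the 3 stages, or 1.30, 20.9 and 16.9 CPM. Its ratio of E14.5 over E13.5 was 16.1 with an interval of 4.25 to 136, wide because the earlier count was 2. Its level at E15.5 was 0.807 of that at E14.5 (0.569 to 1.15), an interval that holds 1. Mef2c stood at 208, 449 and 312 CPM. It was thus 2.16-fold higher at E14.5 than at E13.5 (1.91 to 2.45), and at E15.5 it was at 0.696 of the E14.5 level (0.645 to 0.751), while Runx2 had not fallen.

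Alpl, the tissue-nonspecific alkaline phosphatase that frees phosphate for mineral, rose from 13.7 CPM (21 UMIs) to 104 (293 UMIs) in the first step and stood at 111 (528 UMIs) after the second. The first step was 7.59-fold (4.88 to 12.5), larger than that of Runx2 with intervals that do not overlap. Phex, an endopeptidase of the cell surface whose loss causes hypophosphataemia, had 11, 36 and 42 UMIs, or 7.16, 12.7 and 8.85 CPM, and both of its steps had intervals that hold 1 (0.887 to 3.88 and 0.434 to 1.12).

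Ibsp, bone sialoprotein, had 0 UMIs in the 651 lineage cells of the first stage, 1006 in those of the second and 650 in those of the third. Its levels were 0, 356 and 137 CPM, and E14.5 was at least 183-fold higher than E13.5 when 3 UMIs are allowed for the count of 0. The counting interval of that ratio starts at 148. At E13.5 a single droplet outside the lineage, in the myeloid-like class but without myeloid markers, held 20 Ibsp UMIs, and over all kept cells, this droplet included, the ratio was 118 (75.8 to 193). At E15.5 it stood at 0.384 of the E14.5 level (0.348 to 0.425). Spp1, osteopontin, had 4, 102 and 39 UMIs, or 2.60, 36.1 and 8.22 CPM. Of the 8 genes with enough counts for a call (below), these 2 matrix genes were the ones 2-fold or more lower at E15.5 than at E14.5.

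Both falls rest on few cells, as shown further on. After the 2 cells with the most UMIs of the gene were left out at each stage, a comparison added once the values had been seen, Ibsp was at 479 UMIs and then 274 (0.340-fold), and Spp1 had 7 and 3 UMIs. The log2 ratio of Spp1 between E14.5 and E13.5 went from 3.37 to 0.59 in the same comparison. The rise of Spp1 in the lineage was therefore carried by 2 cells, whereas that of Ibsp was not.

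The late genes were barely present. Ifitm5, a small membrane protein of mineralising osteoblasts, had 1, 23 and 31 UMIs in the lineage. Bglap, osteocalcin, had 0, 4 and 10 UMIs, and Dmp1, a matrix protein of osteocytes and late osteoblasts, had 1, 4 and 2. Bglap2 had 7 UMIs and Bglap3 had 1, all at E15.5. How reads were divided between the 3 osteocalcin copies is uncertain, since their sequences are nearly the same.

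**Figure D1:**
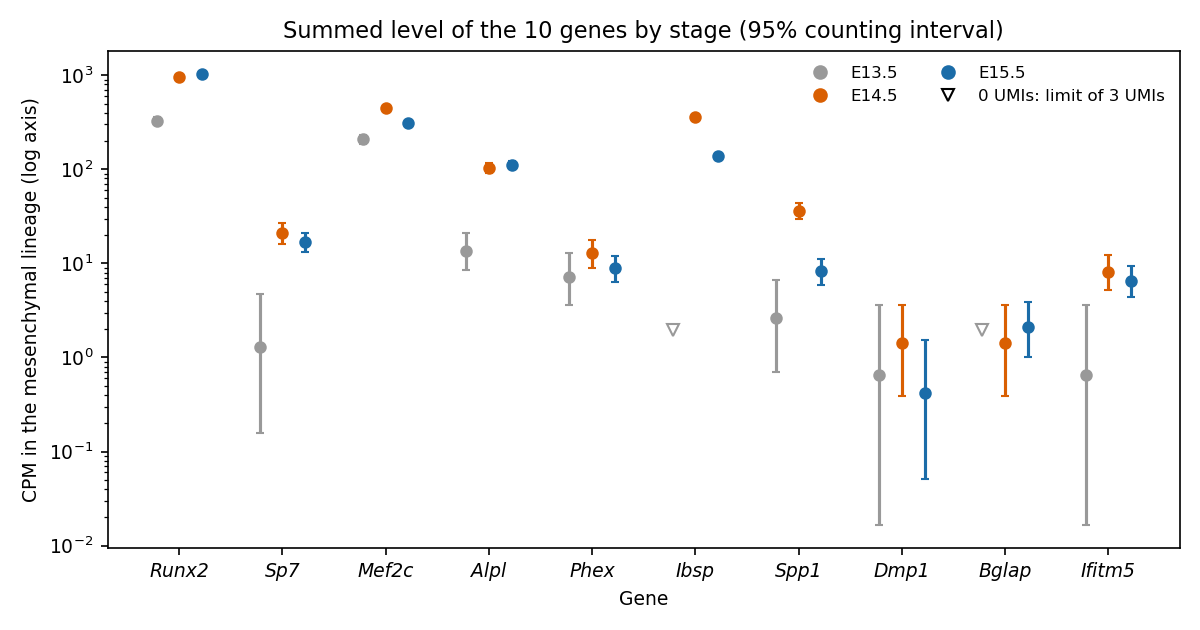
Level of each of the 10 genes in the mesenchymal lineage (CPM, log axis) in grey for E13.5, orange for E14.5 and blue for E15.5, with 95% counting intervals and open triangles at the level of 3 UMIs where none was found. Runx2, Mef2c and Alpl were present at E13.5 and higher at E14.5, Ibsp went from 0 to 356 CPM and then 137, and Dmp1 and Bglap stayed near the limit of counting.

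For a call across genes, a gene needed a mean of at least 5 CPM in the compared sums and a 2-fold difference on the scale of log2(CPM + 1). Between E13.5 and E14.5, 7 of the 10 genes could be called and 6 were higher (Runx2, Sp7, Mef2c, Alpl, Ibsp and Spp1), beside 7.76% of the 11386 genes compared, and 0 were lower, beside 3.37%. The median log2 ratio of the 7 was 2.84 and that of all genes compared -0.01. Sp7, Ibsp and Spp1, at 1.30, 0 and 2.60 CPM at E13.5, reached the mean only through E14.5. A 2-fold rise was thus fixed once they passed, and their calls add nothing to the levels above. Between E14.5 and E15.5, 8 could be called, 0 were higher, beside 1.25% of 11510 genes, and 2 were lower, beside 1.41%. From E13.5 to E15.5, 5 of 7 were higher, beside 10.0% of 11430 genes, and 0 were lower, beside 4.67%. The calls of Sp7, Ibsp and Spp1 were fixed in the same way from E13.5 to E15.5. The 3 comparisons share libraries, so they are not independent of each other.

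The levels of the regulators were next set out by class. At E14.5 Runx2 stood at 2368 CPM in the osteogenic-like class and at 494 in the rest of the lineage, a log2 ratio of 2.26. At E15.5 the levels were 2753 and 635 CPM, a log2 ratio of 2.11. Sp7 stood at 59.0 against 8.05 CPM at E14.5 and 64.1 against 6.43 at E15.5. Mef2c had smaller log2 ratios of 1.43 and 1.66, with 850 against 314 and 712 against 224 CPM.

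Alpl changed its distribution between the later stages. In the osteogenic-like class it stood at 298 CPM at E14.5 and 269 at E15.5, a ratio of 0.903 (0.746 to 1.09). In the rest of the lineage it was 38.4 and 76.4 CPM, a ratio of 1.99 (1.55 to 2.58). The osteogenic-like class thus held 72.4% of the lineage's Alpl UMIs at E14.5 and 43.8% at E15.5. Its part of all lineage UMIs was also smaller at E15.5 (858692 of 4745823) than at E14.5 (711553 of 2823594), and such a fall lowers its share of any gene. Runx2 had 61.7% and 48.9% of its UMIs in the class, and its ratio in the rest of the lineage was 1.28 (1.19 to 1.38). Sp7 had 71.2% and 68.8% of its UMIs in the class.

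More of Ibsp lay in the class, with 91.5% of its lineage UMIs there at E14.5 and 88.9% at E15.5. Its levels were 1293 against 40.7 CPM at E14.5 and 673 against 18.5 at E15.5, log2 ratios of 4.95 and 5.11. Spp1 stood at 141 against 0.947 and at 43.1 against 0.515 CPM. Ifitm5 was at like levels in and outside the class at E14.5, with 8.43 against 8.05 CPM, and stood higher in it at E15.5, with 25.6 against 2.32. Of the 17 UMIs outside the class at E14.5, 14 were in 3 mesenchymal-like cells. Phex had log2 ratios of 0.86 and 0.27, from 19.7 against 10.4 and 10.5 against 8.49 CPM. The place of the matrix genes changed with the filter on cells, and the cause was not tested. Over the 3 stages the log2 ratio of the class over the rest was 5.39 for Ibsp, 5.38 for Spp1, 2.73 for Bglap and 2.06 for Dmp1, and with cells of at least 1000 genes it was 2.09, -3.12, -1.54 and -1.02. For Runx2 it was 2.28 and 2.33 in the same pair of settings.

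At E14.5, 6 of the 8 genes that could be called were 2-fold or more higher in the class than in the rest of the lineage, beside 4.04% of 11378 genes, with 0 lower beside 6.89%. At E15.5 the count was 8 of 9, beside 3.72% of 11406 genes, with 0 lower beside 6.75%. Outside the class Spp1 stood at 0.947 CPM at E14.5, and Spp1, Ifitm5 and Bglap at 0.515, 2.32 and 0.257 CPM at E15.5. They reached the mean only through the class, so for them a 2-fold higher level was fixed once they passed. The class was named from other bone genes, so a higher level of these was built into the choice of markers. Between E14.5 and E15.5 within the class, Ifitm5 and Bglap were the 2 genes higher, beside 4.69% of 11276 genes, and Spp1 was the 1 gene lower, beside 5.52%. These rest on 22 against 6, 9 against 3 and 37 against 100 UMIs. The ratio of Ifitm5 was 3.04 (1.19 to 9.16), with 13 of the 22 later UMIs in 3 cells, while in the rest of the lineage it was 0.288 (0.113 to 0.682), with 14 of the 17 earlier UMIs in 3 cells. Both ratios of Ifitm5 thus rest on few cells. In the class the ratio of Bglap was 2.49 with an interval that holds 1 (0.620 to 14.3) and 8 of the 9 later UMIs in 1 cell. The class had 17 cells at E13.5, with 85 Runx2, 17 Mef2c and 4 Alpl UMIs and none of Phex, Sp7 or Ibsp. In these 17 the 9 osteogenic markers summed to 3 UMIs (68.0 CPM), with 7 of them at 0, Tnn, Fkbp11 and Omd included. The same list stood at 90.3 CPM in mesenchymal-like and 199.9 CPM in chondrogenic-like cells of that stage. Mesenchymal markers stood at 3288 CPM in the 17, against 2173 CPM in mesenchymal-like cells. Neuronal markers stood at 748 CPM, against 396 in mesenchymal-like and 436 in chondrogenic-like cells. The osteogenic name is not borne out for the 17.

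A higher level did not mean that more cells held the gene. At E14.5 Ibsp, at 356 CPM, was found in 35 lineage cells and Alpl, at 104 CPM, in 169. At E14.5 the lineage's 2729 Runx2 UMIs lay in 526 cells, and 75 cells were needed to hold 50% of them. At E15.5, 842 cells held 4832 UMIs and 119 were needed. Mef2c needed 92 and 113 cells, Alpl 41 and 87, and Sp7, although rare, 20 and 27. Ibsp needed 2 cells at each stage, and Spp1 needed 1.

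The 10 highest cells held 10.0% of the Runx2 UMIs at E15.5. For Ibsp the 10 highest held 96.5% at E14.5 and 95.4% a day later. A cell with Ibsp carried 28.7 UMIs of it on average at E14.5 and 19.7 at E15.5, against 1.73 and 1.55 for Alpl and 1.20 and 1.19 for Sp7. Spp1 was found in 5 lineage cells at each stage, of which 1 held 89 of the 102 UMIs at E14.5 and 1 held 35 of the 39 at E15.5.

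**Figure D2:**
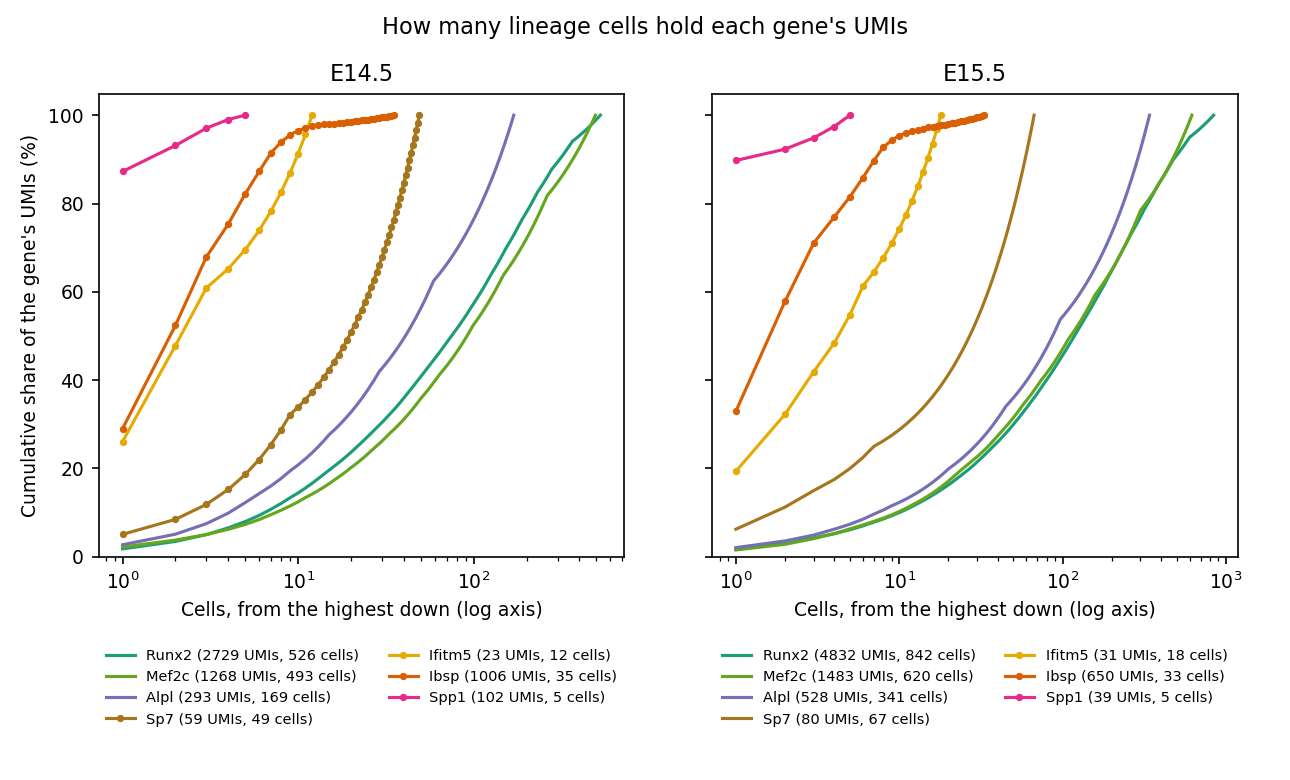
Cumulative share of each gene's UMIs (percent) against the number of lineage cells, taken from the highest cell down (log axis), at E14.5 (left) and E15.5 (right). Spp1, Ibsp and Ifitm5 reach most of their UMIs within 10 cells, and Sp7, Alpl, Mef2c and Runx2 need at least 20 cells for 50%.

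In the lineage cells that had it, Ibsp ran from 1 to 292 UMIs. The cells were split at 10 UMIs, a cut set after the values had been seen. At E14.5, 10 of 1175 lineage cells (0.851%, 0.409 to 1.56) held 10 or more UMIs and together 971 of the 1006. At E15.5, 9 of 1742 (0.517%, 0.237 to 0.978) did, with 613 of the 650. The intervals of the 2 shares overlap, so a difference in the number of such cells was not detectable, and the interval of the fall in Ibsp above counts the molecules of these few cells as if they were independent. The remaining 49 lineage cells with Ibsp held 1 to 9 UMIs, and 40 of them exactly 1. Cells with 1 to 9 UMIs did not differ in frequency beyond counting error between the lineage and all other cells. They made 2.13% of the lineage (1.38 to 3.12) and 2.45% of all other cells (1.35 to 4.08) at E14.5, where the median totals were 1758 and 2142 UMIs. At E15.5 they made 1.38% (0.885 to 2.04) and 1.08% (0.495 to 2.04), with medians of 1967.5 and 2005 UMIs. By frequency, cells with 1 to 9 UMIs were thus not set apart from background. Of the 49, 33 had Runx2, 27 Mef2c, 13 Alpl, 4 Sp7, 4 Ifitm5, 2 Bglap and 1 Phex, and none had Spp1 or Dmp1. In the 596 osteogenic-like cells of these stages without Ibsp the counts were 507, 353, 219, 65, 5, 1 and 13, with 2 for Spp1 and 0 for Dmp1. The median totals were 2937 UMIs in the 49 and 1913.5 in the 596. Only 16 of the 49 were in the osteogenic-like class, so these counts do not compare like cells. At E13.5, where no lineage cell had an Ibsp UMI, no cell of any class held 1 to 9.

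The 19 lineage cells with 10 or more Ibsp UMIs carried 95.7% of the lineage's Ibsp at the 2 later stages, and 15 of them were in the osteogenic-like class, which the clustering found without Ibsp. They were picked by their Ibsp UMIs once these had been seen, so what follows describes them and tests nothing. Runx2 was found in 17 of the 19, Mef2c in 16, Alpl in 14 and Sp7 in 10. Ifitm5 was found in 10, Spp1 in 5, Bglap and Dmp1 in 3 each and Phex in 2. Sp7 was found in 8 of the 10 cells at E14.5 and 2 of the 9 at E15.5. Their median total was 2861 UMIs, above the 1913.5 UMIs of the 596 osteogenic-like cells of the same stages that had no Ibsp, and the part of depth in these counts was not tested.

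Set against those 596 cells as CPM, Runx2 stood at 1807 CPM in the 19 (147 UMIs) and 2547 in the 596, a ratio of 0.710 (0.598 to 0.837). Mef2c was at 1610 against 708 CPM, Sp7 at 197 against 53.9 and Alpl at 430 against 262. Split by stage, the ratio of Sp7 was 8.75 (4.30 to 16.9) in the 10 cells of E14.5 and 0.710 (0.0836 to 2.71) in the 9 of E15.5, and that of Alpl 2.58 (1.59 to 3.99) and then 0.970 (0.493 to 1.73). Runx2 was at 0.935 (0.729 to 1.18) and then 0.568 (0.444 to 0.716), while Mef2c had 2.33 (1.77 to 3.02) and 2.26 (1.73 to 2.92). Of the 73 Runx2 UMIs in the 10 cells of E14.5, 46 were in 1 cell, which also held 28 of their 64 Mef2c UMIs. The E14.5 and pooled ratios of both genes, and the contrast of Runx2 between the stages, therefore lean on 1 cell. Ifitm5 was at 283 against 3.41 CPM, from 23 and 5 UMIs, and Spp1 at 1660 against 1.36, from 135 and 2. Of the other bone genes, named after their values were seen, Col1a1, the main bone collagen, was 5.15-fold higher, Sparc, osteonectin, 6.40-fold higher, and Smpd3, a sphingomyelinase needed for mineralisation, 15.3-fold higher. Ogn, a small proteoglycan, was at 0.251 of the level in the 596.

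The single cells differed widely. The cell with the most Ibsp held 292 UMIs of it, 12.8% of its 2286, together with 1 Runx2, 2 Sp7, 2 Alpl, 7 Mef2c and 79 Col1a1 UMIs and none of the other 5 genes. Another E14.5 cell with 156 Ibsp UMIs among 6359 held 46 Runx2 and 28 Mef2c UMIs but no Sp7 or Spp1. The cell with 89 Spp1 UMIs among 2861 in all also had 69 Ibsp, 8 Phex, 4 Dmp1 and 304 Col1a1 UMIs and 1 of Bglap. At E15.5 the highest cell held 214 Ibsp, 35 Spp1, 8 Bglap, 6 Ifitm5 and 1 Dmp1 UMIs, with 5 of Bglap2 but none of Alpl. High Ibsp thus occurred with much Spp1, with much Runx2 and with little of either.

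Outside the lineage 3 cells also held 10 or more Ibsp UMIs, 1 at each stage. The E14.5 cell had 100 Ibsp, 18 Spp1 and 9 Dmp1 UMIs among 28691 and belonged to a cluster left unnamed. The E15.5 cell, of the epithelial-like class, had 27 among 7117, with 4 Runx2, 4 Sp7 and 5 Alpl UMIs. The E13.5 cell, of the myeloid-like class, had 20 among 3906, with 10 Runx2 and 2 Alpl UMIs, 1 of Col1a1 and none of the myeloid markers. Whether such droplets held more than 1 cell was not tested.

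**Figure D3:**
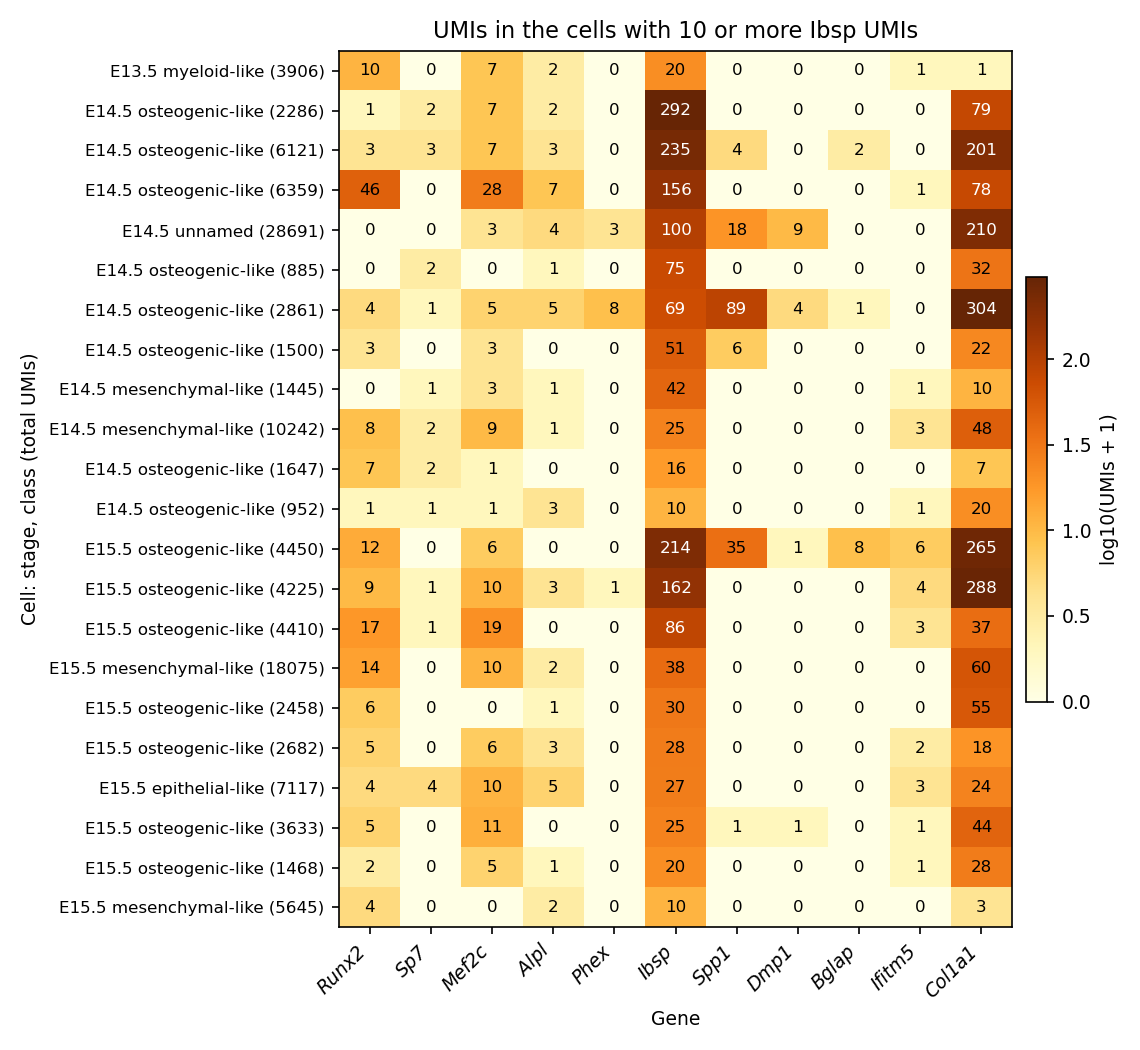
UMIs of the 10 genes and of Col1a1 in each cell with 10 or more Ibsp UMIs, labelled by stage, class and total UMIs in brackets, with colour as log10(UMIs + 1). Ibsp ran from 10 to 292 UMIs, Mef2c and Runx2 were found in most of the cells, and Spp1, Dmp1, Bglap and Phex were at 0 in most.

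To compare how often a gene was detected, each cell was thinned to 1500 UMIs, leaving 389, 684 and 1085 lineage cells and leaving out 262, 491 and 657 shallower ones. Runx2 was then found in 21.1% of cells (17.1 to 25.5) in the first stage, 42.7% (38.9 to 46.5) in the second and 43.5% (40.5 to 46.5) in the third. Without thinning the shares were 24.7%, 44.8% and 48.3%. Mef2c was found in 19.0%, 37.3% and 27.5%, and without thinning in 163 of 651 cells at the first stage and in 42.0% and 35.6% at the later ones. Alpl was found in 2.31% (1.06 to 4.35), 11.3% (8.99 to 13.9) and 14.7% (12.7 to 17.0), and without thinning in 2.30%, 14.4% and 19.6%. Sp7 was found in 0.514%, 3.07% and 1.75%, the last 2 with intervals that overlap (1.91 to 4.65 and 1.06 to 2.72), and without thinning in 0.307%, 4.17% and 3.85%.

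The background for these shares was taken from myeloid-like and endothelial-like cells thinned in the same way (24, 76 and 101 cells). Runx2 was found in 4.17%, 10.5% and 3.96% of them, Alpl in 4.17%, 1.32% and 0%, and Sp7 in 0%. The Runx2 and Alpl values of the first stage are 1 cell each, and the Alpl cell was the E13.5 droplet with 20 Ibsp UMIs and no myeloid markers. At the later stages the lineage shares of Runx2 and Alpl were above these. At E13.5 the 24 background cells were too few to set either gene apart by its share. Mef2c was found in 54.2%, 52.6% and 55.4% of the same cells, more than in the lineage, so it has no background class among them. Phex was found in 1.03%, 1.32% and 0.829% of lineage cells and in 0%, 1.32% and 0.990% of the background cells, which does not set it apart.

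In the order of detection at E13.5, Runx2 and Mef2c came first, in 82 and 74 of the 389 thinned cells. Alpl followed with 9 cells, Phex with 4, Sp7 with 2 and Spp1 with 1, and Ibsp, Ifitm5, Bglap and Dmp1 with 0. A count of 0 allows up to 0.771% of cells with a UMI at this depth, and does not limit the share with RNA too low to be found. Before thinning, Ifitm5 and Dmp1 had 1 UMI each in the lineage. Runx2 and Mef2c did not differ beyond their intervals, and from Alpl down each gene overlapped the next. At E14.5 the order was Runx2, Mef2c, Alpl, Sp7 and Ibsp, with overlapping intervals between Runx2 and Mef2c and between Sp7 and Ibsp. The place of Ibsp counts cells with any UMI of it, and cells with 1 to 9 were as frequent outside the lineage. At E15.5 the order was the same, and the intervals of Runx2, Mef2c and Alpl no longer overlapped. Stages 1 day apart cannot show which gene came on first in a cell.

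Detection of Alpl went with Runx2 at all 3 stages. At E13.5, 7 of the 9 Alpl cells also had Runx2. At E14.5, Alpl was found in 19.5% (15.1 to 24.5) of cells with Runx2 and in 5.10% (3.14 to 7.77) of those without. At E15.5 it was found in 24.2% (20.4 to 28.3) of cells with Runx2 and in 46 of the 613 without (5.55 to 9.88%). Read the other way, 74.0% and 71.2% of Alpl cells at the 2 stages had Runx2, and in the others none was found at this depth. Both genes were higher in the osteogenic-like class. Inside it, over the 2 later stages, Alpl was found in 32.9% (27.8 to 38.3) of cells with Runx2 and in 11 of the 69 without (15.9%, 8.24 to 26.7).

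Sp7 was found mostly in cells with Runx2. Both Sp7 cells at E13.5, 18 of 21 at E14.5 and 16 of 19 at E15.5 had Runx2, beside 41.3% and 42.8% of the cells without Sp7 at the later stages. Mef2c was found in 18 of 21 and 12 of 19 Sp7 cells, beside 35.7% and 26.8% of those without. Alpl was found in 5 of 21 and 5 of 19 Sp7 cells, beside 72 of 663 and 155 of 1066 cells without Sp7. Mef2c was found in 49.7% of Runx2 cells against 28.1% of the others at E14.5, and in 38.1% against 19.2% at E15.5.

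For Ibsp the pairing with Runx2 was less certain. Of the thinned cells with an Ibsp UMI, 10 of 18 at E14.5 and 11 of 15 at E15.5 had Runx2, beside 42.3% and 43.1% of cells without Ibsp, with intervals of 30.8 to 78.5% and 44.9 to 92.2%. Only the second excludes the share in cells without Ibsp, and low Ibsp counts were no more frequent than in other cells. Ifitm5 was found in 14 thinned cells of the 2 stages.

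The share with Alpl was higher in cells with 9 or more Runx2 UMIs than in cells with 0. Over E14.5 and E15.5 it was 6.57% in the 1005 cells with 0 Runx2 UMIs, 14.4% with 1, 22.4% with 2, 20.0% with 3 to 4, 30.8% with 5 to 8 and 41.7% in the 72 cells with 9 or more. The 2 stages gave 20 of 392 and 46 of 613 cells at 0 and 42.3% and 41.3% at 9 or more. Mef2c was found in 22.7% at 0, 35.0% at 1, 43.3% at 2, 38.8% at 3 to 4, 52.3% at 5 to 8 and 59.7% at 9 or more, so neither gene was higher at every step. Sp7 was found in 0.597% of cells at 0 Runx2 UMIs, 1.90% at 1, 2.24% at 2 and 7.88% at 3 to 4, and in 6.15% and 6.94% above that. Ibsp was found in 1.19% (0.618 to 2.08) at 0, 1.52% at 1, 1.49% at 2, 3.64% at 3 to 4, 5.38% (2.19 to 10.8) at 5 to 8 and 2.78% (0.338 to 9.68) at 9 or more. Inside the osteogenic-like class Alpl went from 15.9% at 0 to 47.8% (32.9 to 63.1) at 9 or more.

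**Figure D4:**
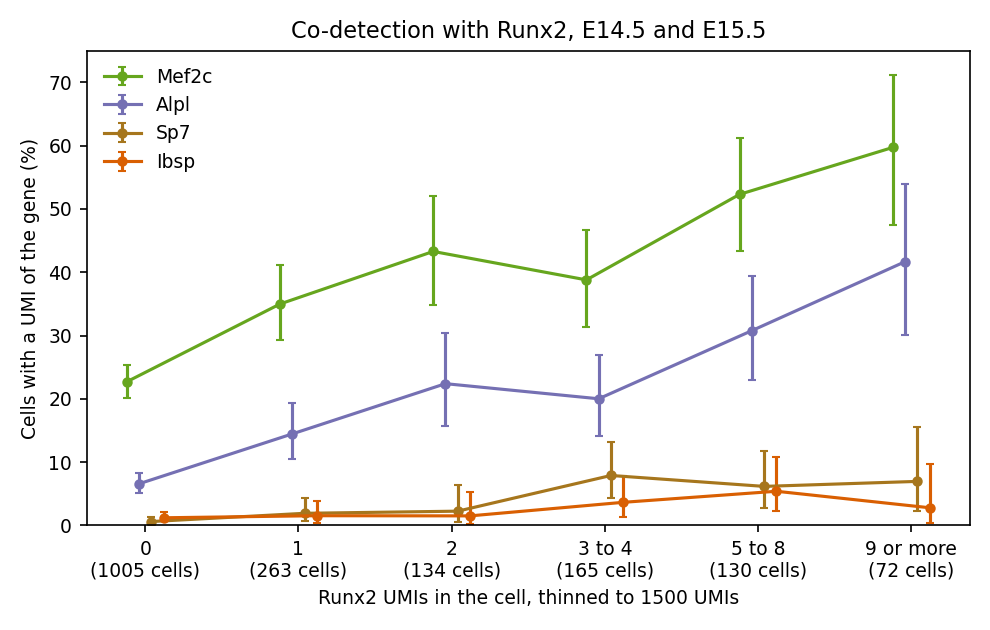
Share of lineage cells of E14.5 and E15.5 with a UMI of Mef2c, Alpl, Sp7 or Ibsp (percent, 95% binomial interval) by the number of Runx2 UMIs in the cell after thinning to 1500 UMIs. Mef2c and Alpl were at 59.7% and 41.7% at 9 or more Runx2 UMIs, above 22.7% and 6.57% at 0, with lower values at 3 to 4 than at 2, while Ibsp was at 5.38% or lower in every bin.

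Counting how many of the 10 genes a thinned lineage cell held, 33.4% had at least 1 in the first stage, 62.3% in the second and 59.1% in the third. At least 2 were found in 9.25%, 26.3% and 23.3%, and at least 3 in 1.54%, 8.48% and 6.82%. One E14.5 cell had 9 of the 10. Runx2 was found without any other of the 10 in 57.3%, 42.5% and 48.5% of the Runx2 cells. Alpl was alone in 1 of 9, 14 of 77 and 39 of 160 of its cells.

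Chondrogenic-like cells, 219 in all, expressed their own markers at a sum of 11104 CPM. Runx2, which also acts in maturing chondrocytes, stood there at 303 CPM (260 to 350) over the 3 stages, with 257, 339 and 383 CPM from the first to the last and intervals that overlap. Of these cells 120 were from E13.5, so the classes were set side by side over the 2 later stages. Runx2 was then at 356 CPM (289 to 433), below the 597 CPM of mesenchymal-like and the 2579 of osteogenic-like cells and above the 99.8 of myeloid-like ones. Mef2c was at 270 CPM. Alpl was at 18.0 CPM (5.84 to 42.0, from 5 UMIs), against 282 in osteogenic-like cells. Over the 3 stages Ibsp had 1 UMI, Sp7 2 and Spp1, Bglap, Dmp1 and Ifitm5 0. Under the other settings Runx2 in this class went down to 216 CPM. The osteogenic marker list summed to 209 CPM in these cells, with Dlx3, Mmp13 and Cgref1 at 0, against 776 CPM in the osteogenic-like class.

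Endothelial-like cells, 119 in all, had the highest Mef2c level, 860 CPM (764 to 966), next to 764 (722 to 808) in osteogenic-like and 627 (564 to 695) in myeloid-like cells. The first 2 intervals overlap. Over the 2 later stages these 2 classes stood at 890 and 774 CPM, the first at 115% of the second (100.4 to 131). Mef2c was found in 89 of the 119 endothelial-like, 122 of the 227 myeloid-like and 388 of the 644 osteogenic-like cells. Alpl, Ibsp, Spp1, Sp7, Phex, Bglap, Dmp1 and Ifitm5 were at 0 UMIs in endothelial-like cells, which allows up to 8.96 CPM each. Runx2 had 13 UMIs in 4 cells, or 38.8 CPM (20.7 to 66.4), but this value moved to between 196 and 317 CPM under other cell filters and clusterings, and Ibsp to 60.6 CPM with at least 1000 genes per cell. The low Runx2 level in this class therefore holds only for the cells as clustered here.

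Myeloid-like cells, the macrophage lineage, had Runx2 at 110 CPM (84.9 to 141), with 168, 142 and 73.1 CPM at the 3 stages, and at 171 CPM where no doublets were left out. The E13.5 value rests on 15 UMIs in 2 cells, and 10 of them were in the droplet with 20 Ibsp UMIs and no myeloid markers described above. Their 25 Runx2 cells stood at 1058 CPM of Col1a1, against 245 in the 202 without, and their summed myeloid markers were 4762 against 6446 CPM. In the 122 Mef2c cells of the class the order of the myeloid markers was the opposite, 7217 against 4651 CPM, with median totals of 2266.5 and 1366 UMIs. Spp1, which macrophages and osteoclasts also make, had 11 UMIs in 3 myeloid-like cells. Those 3 had no UMI of Col1a1 or of the 9 osteogenic markers, and 12 UMIs of the osteoclast list. Of the 22 Ibsp UMIs in the class, 20 were in the single E13.5 cell described above.

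In the other classes levels are given over the 2 later stages, since 1807 of the 2113 neuronal-like cells were from E13.5. Runx2 stood at 287 CPM in muscle-like, 107 in epithelial-like, 99.6 in neuronal-like and 74.8 in glial-like cells, beside 99.8 in myeloid-like cells of the same stages. Over the 3 stages its neuronal-like level was 21.4 CPM. Mef2c stood at 602 CPM in glial-like and 99.6 in neuronal-like cells. Over the 3 stages Sp7 had 30 UMIs in 7 neuronal-like cells, of which 25 were in 2 cells of E13.5 without Runx2 (18 and 7 UMIs), and 4 were from the later stages. Over the 3 stages Phex stood at 14.2 CPM in osteogenic-like, 9.15 in mesenchymal-like, 6.11 in epithelial-like and 4.32 in neuronal-like cells, and had 0 UMIs in endothelial-like, glial-like and muscle-like cells. Of the 16 Bglap UMIs, 12 were in 4 osteogenic-like cells. Of 17 Dmp1 UMIs in kept cells, 6 were in 3 osteogenic-like cells and 9 in 1 cell of an unnamed cluster.

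**Figure D5:**
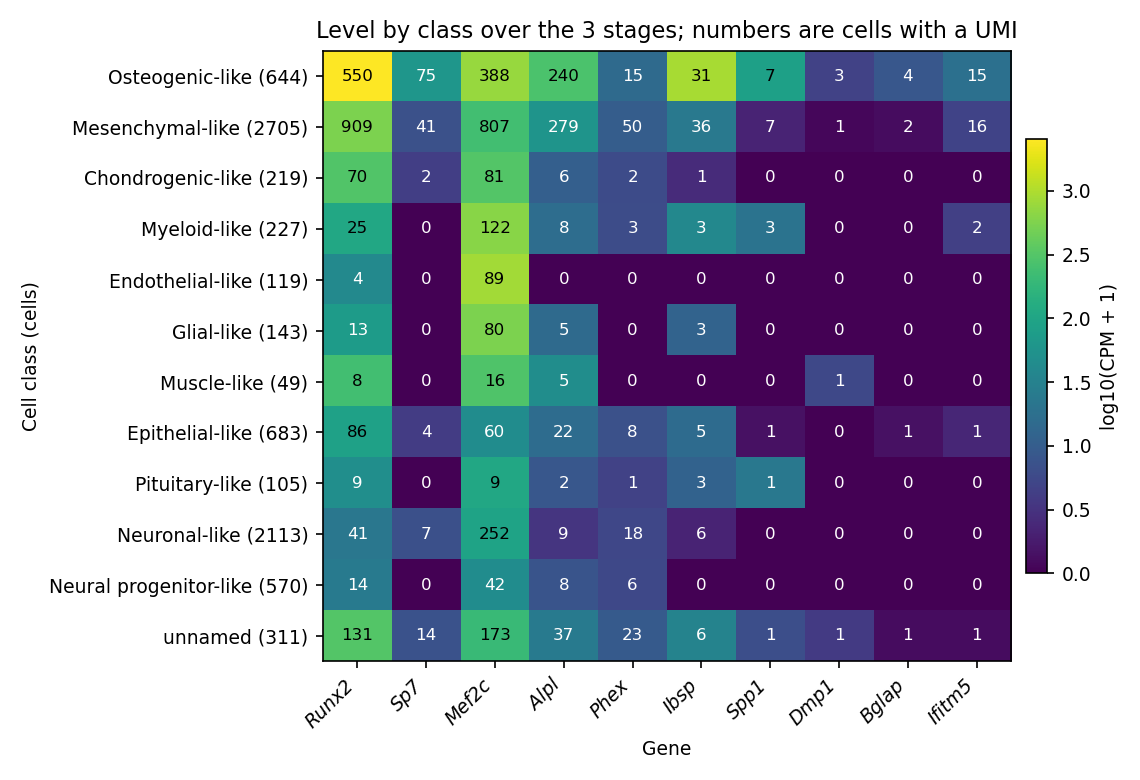
Level of each of the 10 genes by cell class over the 3 stages, as log10(CPM + 1) in colour, with the number of cells that had a UMI printed in each field and the cells per class in brackets. Mef2c was high in osteogenic-like, endothelial-like, myeloid-like and glial-like cells, Runx2 was highest in the osteogenic-like row, and Sp7, Ibsp, Spp1 and Ifitm5 were at 0 or found in few cells outside the bone lineage.

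A list of 40 other bone genes, 10 each of transcription factors, matrix genes, mineral and phosphate genes, and late osteoblast and osteocyte genes, was read beside the 10. From E13.5 to E14.5, 28 could be called and 12 were higher, beside 7.76% of all genes compared, and 1, Cthrc1, was lower (log2 ratio -1.47), beside 3.37%. Of the matrix genes 8 of 9 were higher, of the transcription factors 1 of 9, of the mineral genes 2 of 7 and of the late genes 1 of 3. Their median log2 ratios were 1.70, 0.40, 0.16 and 0.89. From E14.5 to E15.5, 27 could be called and 0 were 2-fold higher or lower, beside 1.25% and 1.41% of all genes, shares at which fewer than 1 of 27 would be called. Among the transcription factors this step had log2 ratios of -0.88 for Dlx6 and -0.33 for Dlx5, homeobox genes of jaw patterning and bone, and of 0.11 for Zfhx4. Among the matrix genes it ran from -0.35 for Cthrc1 and -0.32 for Serpinh1, a collagen chaperone, to 0.47 for Ogn and 0.53 for Omd. The mineral genes ran from -0.78 for Panx3, a channel protein of osteoblasts, and -0.55 for Smpd3 to 0.34 for Enpp1, which makes pyrophosphate, and 0.45 for Mgp, an inhibitor of calcification. The 3 late genes were Pdpn (-0.45), the parathyroid hormone receptor gene Pth1r (-0.26) and the matrix protease gene Mmp14 (0.05). Phospho1, Mepe and Sost, which act at mineralisation or mark osteocytes, had 0 UMIs in the lineage.

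In the osteogenic-like class 8 of 29 were higher than in the rest of the lineage at E14.5 and 2 lower, beside 4.04% and 6.89% of all genes compared. At E15.5, 9 of 28 were higher and 0 lower, beside 3.72% and 6.75%. Pth1r, Smpd3, Tnn and Omd, all in the list, helped to name that class, so their higher level there is no finding and they are part of these counts.

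The genes whose levels were most like those of a member were sought over 49 units of cluster and stage among 14163 genes, by Pearson's r on log2(CPM + 1). These r values are descriptions, since units of 1 library share its depth and free RNA. For Runx2 they were Adamts12, a metalloproteinase (r = 0.86), Ddr2, a collagen receptor (0.85), and Col1a2 (0.84), and Alpl reached 0.85. For Ibsp they were D030025E07Rik (0.69), Omd (0.68) and Tnfsf11, the osteoclast factor RANKL (0.62), beside 0.71 for Ifitm5 and 0.67 for Alpl. For Mef2c they were Gnb4 (0.79), Dab2 (0.79) and Kctd12 (0.78), none of them among the bone genes listed here. For Spp1 they were Slfn8 (0.65), Entpd3 (0.55) and 2210408F21Rik (0.53), on a level set by few cells.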

How the data were processed

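The deposited values are unscaled UMI counts for each gene in each barcode, which the authors made with Cell Ranger 6.1.2 on mm10 per the submitters' processing notes. The annotation release is not given in the sources used here, and the counts were used as deposited. The 10 genes, the list of 40 other bone genes and the marker lists were chosen with earlier results of these data known. Cells with at least 500 genes and at most 20% mitochondrial UMIs were kept. The automatic threshold of scrublet marked 0.0617% of barcodes and was not usable, and the top-scoring cells were removed at a rate of 0.8% per 1000 barcodes. Clustering used scanpy 1.11.5 with 12 genes held out (the 10, Bglap2 and Bglap3), 2000 variable genes, 30 components, 15 neighbours and Leiden resolution 1. Unnamed clusters were split once more at resolution 0.3. A cluster was named from at least 3 markers of one list at 20 CPM and 2-fold over the lower quartile of clusters, a rule settled while the clusters were in view, so another naming could move cells between classes.

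UMIs were summed per class and library. Intervals are exact Poisson intervals for levels, exact conditional intervals for ratios and Clopper-Pearson intervals for shares, and a count of 0 was taken to allow 3. Shares were read after thinning each cell once to 1500 UMIs. No p-value was computed, since each stage is 1 library. The counting and calling steps were tested on simulated data with independent counts. Those lack the clumping of Ibsp and Spp1 in few cells, so how the intervals hold for such genes was not tested. All 10 genes are named. Of the 40 others the 2 highest and 2 lowest ratios of E15.5 over E14.5 in each group are named with those at 0, except 1 that is not reported here, and the 3 most similar genes each for Runx2, Ibsp, Spp1 and Mef2c. Gene positions are from GENCODE on GRCm38, and upstream sequences from RefSeq on GRCm38.p6.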

Additional observations from a re-analysis of the deposited data

How the results depend on the processing

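The main counts, and for the 10 genes the steps in the lineage, the class ratios and a set of shares, pairs and class levels, were recomputed under the settings that bear on them: with at least 1000 genes per cell, with no doublets left out, with 3 times as many highest doublet scores left out, with the 10 genes included in the clustering, at resolution 0.5, over all cells of a library, at other depths of thinning, with a pseudocount of 5 CPM and with no filter on low values. Of the main counts and shares, 53 recomputed values stayed near the value reported, meaning a count within 1.5 times it or a value inside its 95% counting interval, and 3 moved out of that range. Without the filter on low values, 1 of the other bone genes was 2-fold higher at E15.5 than at E14.5 in place of 0. Of the 12 genes named as most like a member, 5 were again among the 3 closest with units of at least 50 cells and 4 with Spearman's rho, so those names depend on the measure. Of the single-gene values, 246 stayed near, 59 moved and 3 reversed: with at least 1000 genes per cell the log2 ratio of the osteogenic-like class over the rest of the lineage was -3.12 for Spp1, -1.54 for Bglap and -1.02 for Dmp1, and the cause was not tested. Resolution 0.5 gave no osteogenic-like class, so that class has no value there. Leaving out a library was not possible with 1 per stage. No paired analysis was possible because each stage is a single library. Bglap and Dmp1 had at most 10 UMIs per stage in the lineage, and their ratios between stages have intervals that hold 1.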
